A study of Mus musculus with 19 samples.

Results

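The subunits of the CCR4-NOT complex were followed at the mRNA level in mouse embryonic stem cells with Trim71, Lin28a, both or neither intact. The set was listed by gene symbol, with earlier results of these data known: Cnot1, Cnot2, Cnot3, Cnot4, Cnot6, Cnot6l, Cnot7, Cnot8, Cnot10 and Cnot11. Cnot9, the remaining core subunit, is not in the set and is described with other genes below. All 10 symbols were found among the 21685 gene symbols of the deposited table, and all 10 passed the filter on low values.

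CCR4-NOT is the main cytoplasmic deadenylase: it shortens the poly(A) tail of mRNAs, which is followed by decapping or decay. CNOT1 is the scaffold. CNOT2 and CNOT3 form the NOT module at its C-terminal end, and CNOT10 and CNOT11 bind its N-terminal end. The catalytic nucleases come from paralogue pairs, CNOT6 or CNOT6L (the CCR4 homologues) and CNOT7 or CNOT8 (the CAF1 homologues), of which a complex holds a single member per pair. CNOT4 is a ubiquitin ligase that is stably bound in yeast but not in mammals. In embryonic stem cells CNOT1, CNOT2 and CNOT3 are known to be needed for self-renewal. TRIM71 is an RNA-binding ubiquitin ligase that represses target mRNAs. MicroRNA-guided silencing recruits CCR4-NOT through TNRC6 proteins. LIN28A blocks the maturation of let-7 microRNAs.

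The cells were male, of the strain C57BL/6, grown with serum and LIF (a cytokine that keeps them undifferentiated) and enriched by MACS for SSEA-1, a surface antigen of undifferentiated cells. The names give the Trim71 state first: WT-WT (genotype Trimfl/fl - Lin28afl/fl, 4 libraries), KO-WT (Trim-/- - Lin28afl/fl, 4 libraries used), WT-KO (Trimfl/fl - Lin28a-/-, 5 libraries) and KO-KO (Trim-/- - Lin28a-/-, 5 libraries). Trim71 was deleted in conditional cells with 500 nM 4-OHT, the drug that activates an inducible recombinase, given for 2 days and followed by 7 or more days of culture. The labels do not say whether the floxed cells received the drug. The 4 clone names split by Lin28a state, with 1 and E3 in the Lin28a-intact and 1-4 and C1 in the Lin28a-null libraries, so clone and Lin28a state cannot be told apart. The labels do not say how the Lin28a-null clones were made or whether replicates were separate cultures, so p-values measure only the spread between these libraries.

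The values were log2 normalised levels, and each library's levels summed to between 7297919 and 7677445 on the linear scale; because the values were normalised before deposit, the sequencing depth is unknown. Trim71 was at 10.04 or more in Trim71-intact libraries and at 9.55 or less in Trim71-null ones. Lin28a was at 9.74 to 10.26 in Lin28a-intact and at 8.21 to 8.57 in Lin28a-null libraries, so neither gene's groups overlapped. Each gene also differed with the state of the other, and limma called both differences. Mean Lin28a was 10.13 in WT-WT and 9.84 in KO-WT, and mean Trim71 was 10.21 in WT-WT and 10.65 in WT-KO. Pluripotency markers (8 of 8 listed genes tested) summed to log2 15.22 to 15.42 in Lin28a-intact and to 15.53 to 15.69 in Lin28a-null libraries, and limma called 6 of the 8 higher in WT-KO against WT-WT. Trophectoderm markers (4 of 6 tested) summed to 11.69 to 12.21 in Lin28a-intact and to 7.89 to 8.65 in Lin28a-null libraries, and primitive endoderm markers (5 of 6 tested) to 8.02 to 8.88 and to 6.30 to 6.99. Of 7 fibroblast markers 3 were found in the table, and these summed to 6.45 to 6.88 and to 6.00 to 6.32. The sums of all 4 lists therefore moved with the Lin28a state without overlap, but single genes did not all follow. In WT-KO against WT-WT limma called 3 of 4 trophectoderm, 5 of 5 primitive endoderm and 2 of 3 fibroblast markers lower. Eomes (means 5.30 in WT-WT and 5.43 in WT-KO) and Thy1 (5.18 and 5.32) were not lower. In WT-WT the trophectoderm sum was set mainly by Krt8 and Krt18, at means of 10.96 and 10.80, far above Gata3 and Eomes. Cdx2 and Elf5, also listed, did not pass the filter on low values and were not tested. The fall of that sum is therefore mainly that of Krt8 and Krt18 and is not read for the list as a whole. In WT-KO against WT-WT limma also called 4 of 10 members, against 42.4% of all genes. The part of the lists in those results was not tested. In bulk RNA, fewer cells of a type and less RNA per cell cannot be told apart. Neural progenitor markers (4 of 5 tested) summed to 8.65 to 9.05 in Lin28a-intact and to 8.27 to 8.75 in Lin28a-null libraries, which overlap.

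Levels of different members were compared per kilobase of the longest protein-coding transcript, on the log2 scale and averaged over the 18 libraries. Cnot8 was highest at 9.10, followed by the scaffold Cnot1 at 8.81, Cnot10 at 8.76 and Cnot3 at 8.58. Cnot2 was at 7.99, Cnot7 at 7.64, Cnot6 at 7.08, Cnot11 at 6.63 and Cnot4 at 6.17. Cnot6l was lowest at 4.53. Within each catalytic pair 1 paralogue was more abundant, Cnot8 over Cnot7 and Cnot6 over Cnot6l. The neighbours Cnot1 and Cnot10 changed order between genotypes: Cnot1 was at 8.87 and Cnot10 at 8.73 in WT-WT, against 8.61 and 8.77 in KO-WT. All members ranked above the median of the tested genes before division by length, from the 53.9th percentile for Cnot6l to the 98.3rd for Cnot1. Over all libraries the range of single members was small, from 0.19 for Cnot10 to 0.76 for Cnot6l on the log2 scale.

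**Figure D1:**
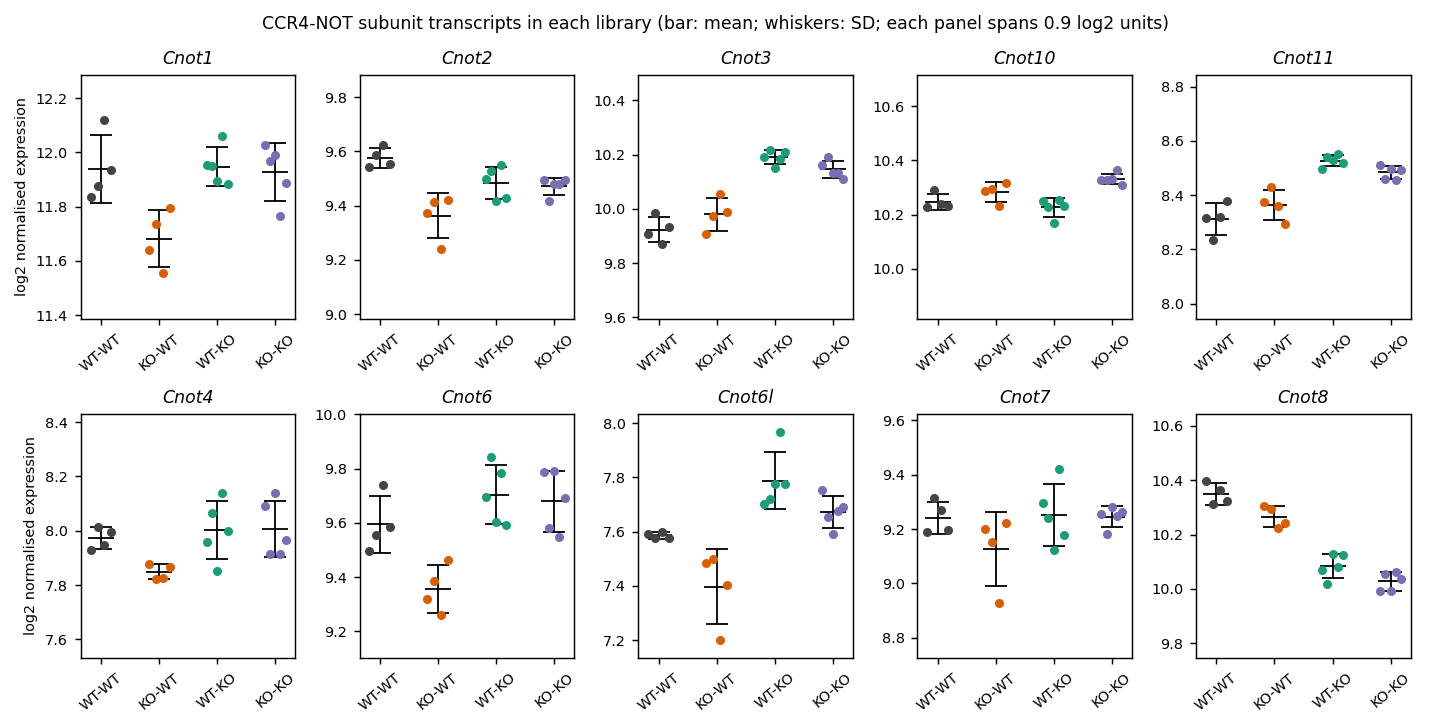
Log2 normalised level of each CCR4-NOT subunit in each of the 18 libraries, grouped by genotype, 1 panel per gene; points are libraries, bars means and whiskers SD. Cnot8 is lower and Cnot3 and Cnot11 are higher in every WT-KO library than in any WT-WT library.

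After loss of Trim71 with Lin28a intact (KO-WT against WT-WT) the scaffold Cnot1 and the NOT-module subunit Cnot2 fell, and no member rose. Calls were made at an adjusted p under 0.05 by limma, adjusted by Benjamini-Hochberg over all 14988 genes tested. The 2 of 10 members called stand against 11.2% of all genes called in either direction and 6.43% called lower. The members' median difference was -0.12, against -0.0046 for all genes tested.

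Cnot1 was at 11.83, 11.87, 12.12 and 11.93 in the WT-WT libraries and at 11.64, 11.74, 11.56 and 11.80 in KO-WT. Every KO-WT library was below every WT-WT library, with the nearest pair 11.80 and 11.83. The log2 difference was -0.26 (SE 0.077), so that the level fell by 16.4%, with adjusted p = 0.0427 by limma. Cnot1 was no longer called when 1 library was left out in turn in 11 of 18 such fits, over which the difference ran from -0.31 to -0.17 and the limma adjusted p from 0.0260 to 0.174.

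Cnot2 was at 9.54, 9.59, 9.62 and 9.55 in WT-WT and at 9.37, 9.41, 9.24 and 9.42 in KO-WT. The genotypes did not overlap, and KO-WT replicate 3 was the lowest library. The difference was -0.21 (SE 0.0517, adjusted p = 0.0189 by limma), so that the level fell by 13.8%. Cnot2 lost its call without WT-WT replicate 3, WT-WT replicate 4 or KO-WT replicate 3, at an adjusted p of up to 0.0773 by limma. Without any 1 of these 3 libraries no member was called.

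The clones gave different sizes. In clones E3 and C1 alone Cnot1 differed by -0.36 and Cnot2 by -0.27, and in clones 1 and 1-4 alone, which hold 1 KO-WT library, by -0.07 and -0.12. With limma adjusted p of 0.161 and 0.163 in the former and 0.657 and 0.364 in the latter, neither gene was called within a pair of clones, and the direction was the same in both pairs. Of all genes, 0.0667% were called in the former and 2.3% in the latter.

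The deadenylases were not called after Trim71 loss. Cnot6 was at 9.50 to 9.74 in WT-WT and at 9.26 to 9.46 in KO-WT, a difference of -0.24 (SE 0.0799, adjusted p = 0.0639 by limma). Cnot6l was at 7.58 to 7.60 and at 7.20 to 7.50, a difference of -0.19 (SE 0.0769, limma adjusted p = 0.117). Cnot8 was at 10.31 to 10.40 and at 10.22 to 10.30, a difference of -0.08 (SE 0.0434, limma adjusted p = 0.217). In all 3 every KO-WT library was below every WT-WT library, although none passed the test. Cnot7, the other CAF1 paralogue, differed by -0.12 with overlapping genotypes (limma adjusted p = 0.315, 95% interval -0.27 to 0.04).

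With Cnot1, Cnot2 and the ubiquitin ligase Cnot4 (-0.12, limma adjusted p = 0.266), 6 of 10 members were lower in every KO-WT than in every WT-WT library, against 15.3% of all genes tested. The remaining subunits, Cnot3 (0.06), Cnot10 (0.04) and Cnot11 (0.05), overlapped between the genotypes.

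The difference between KO-WT and WT-WT followed the base composition of transcripts. Across 14724 genes the log2 difference rose with the GC content of the longest transcript (Spearman's rho 0.502, across genes, which are not independent replicates). Of the members, 8 of 10 had a GC content under the median of tested genes, from Cnot4 at 37.0%, Cnot6l at 37.6%, Cnot7 at 38.2% and Cnot6 at 39.8% to Cnot8 at 48.5%. Only Cnot3 at 50.4% and Cnot11 at 51.8% were above it. Cnot4, Cnot6l, Cnot7 and Cnot6 had negative differences, as did Cnot2 at 43.9% and Cnot1 at 45.8%. Cnot3 and Cnot11, above the median, had positive ones. Cnot10 at 48.4%, under the median, also had a positive difference (0.04), while that of Cnot8 was negative (-0.08).

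With each library corrected for its dependence on GC content and transcript length, the difference of Cnot2 was -0.13 (SE 0.0395, adjusted p = 0.0481 by limma) and stayed past the threshold. Cnot1 moved to -0.12 (SE 0.0438, adjusted p = 0.0919 by limma), Cnot6 to -0.04 and Cnot8 to -0.08. Cnot4 (0.09), Cnot6l (0.08) and Cnot7 (0.08) changed sign, with limma adjusted p of 0.381, 0.580 and 0.371. Of the 7 members with a negative difference, 6 thus moved by more than 1.5 times or changed sign, and Cnot8 kept its size.

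**Figure D2:**
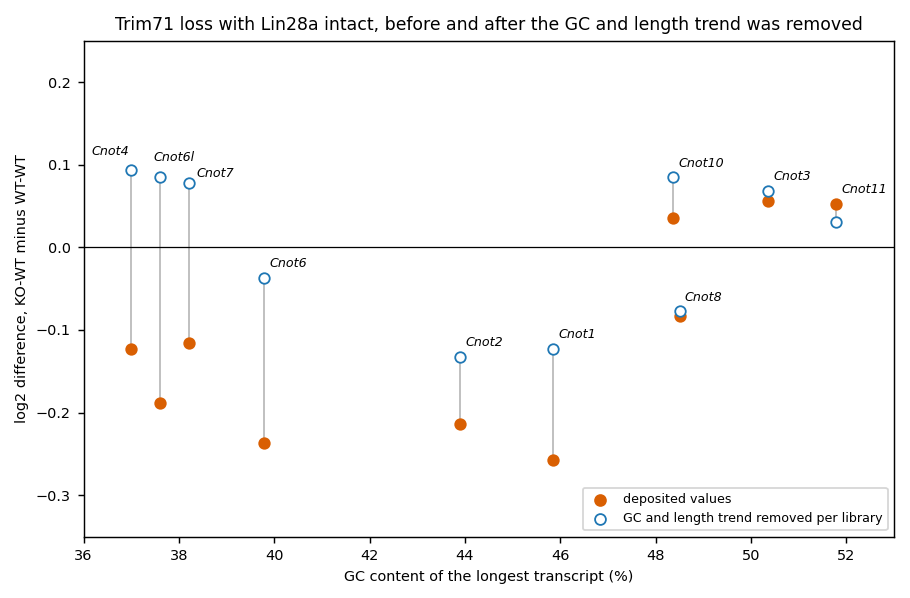
Log2 difference between KO-WT and WT-WT for each subunit (y axis) against the GC content of its longest transcript in percent (x axis), from the deposited values (filled) and after removal of each library's GC and length trend (open). Cnot1 moves from -0.26 to -0.12 and Cnot8 from -0.08 to -0.08, while Cnot4, Cnot6l and Cnot7 cross 0.

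The same property moved with the members between libraries of 1 genotype. In each library the deviations of all genes from their genotype means had a rank correlation with GC content, which ran from -0.452 in WT-KO replicate 4 to 0.479 in KO-WT replicate 3. Over the 18 libraries the deviation of Cnot1 fell as that coefficient rose (r = -0.891, a description), as did those of Cnot6 (-0.841), Cnot2 (-0.801) and Cnot7 (-0.780). For Cnot3 (0.381), Cnot8 (0.207) and Cnot11 (-0.202) the relation was weak. KO-WT replicate 3, where Cnot1, Cnot2, Cnot6, Cnot6l and Cnot7 were at their lowest, was the library with the highest coefficient.

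**Figure D3:**
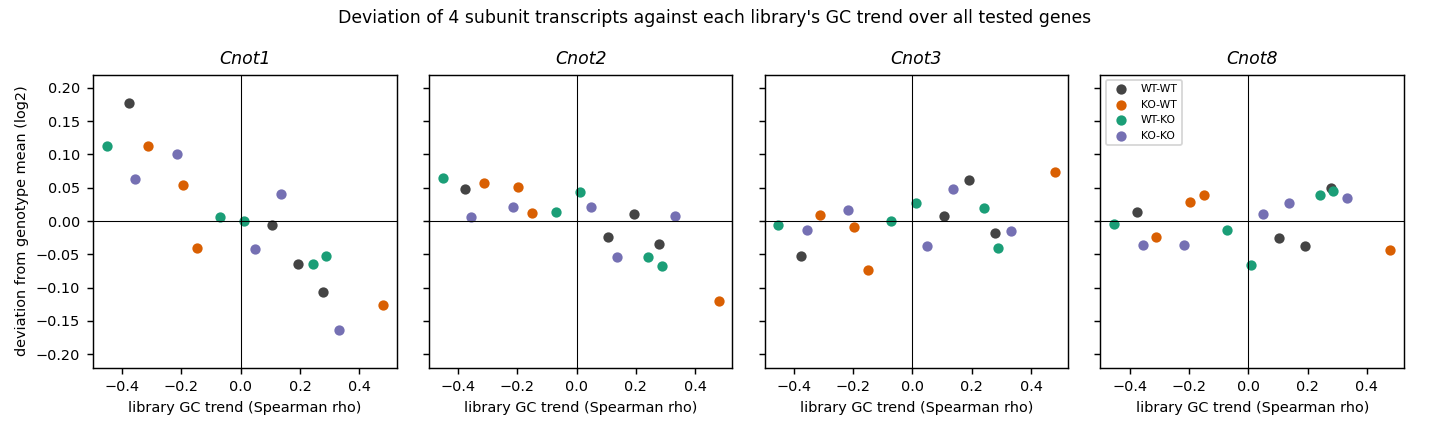
Deviation of Cnot1, Cnot2, Cnot3 and Cnot8 from their genotype means (log2, y axis) against the rank correlation of all genes' deviations with GC content in the same library (x axis); points are the 18 libraries, coloured by genotype. Cnot1 and Cnot2 fall from left to right (r = -0.891 and -0.801), and Cnot3 and Cnot8 show a weak relation (0.381 and 0.207).

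Pairs of subunits varied together within genotypes in the same libraries: r was 0.890 for Cnot2 and Cnot7, 0.821 for Cnot1 and Cnot6, 0.796 for Cnot7 and Cnot10 and 0.746 for Cnot2 and Cnot6 (n = 18, as a description). Of the 45 pairs 30 had a positive and 15 a negative coefficient, the lowest being -0.616 for Cnot4 and Cnot8, -0.575 for Cnot6 and Cnot8 and -0.560 for Cnot3 and Cnot8. All pairs come from the same 18 libraries. The members' GC content ran from 37.0% in Cnot4 to 51.8% in Cnot11, and its part in these coefficients was not tested. The genes whose levels were most like the members' mean over the 18 libraries were Yes1 (r = 0.985), Zfp451 (0.978), Foxn2 (0.978), Usp37 (0.970) and Kmt5b (0.968). Their GC contents were 41.1%, 41.1%, 41.2%, 43.1% and 47.0%, which lie within the members' range.

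In Lin28a-null cells, loss of Trim71 (KO-KO against WT-KO) changed no member past the threshold: limma called 0 of 10, against 8.38% of all genes, with 1 member at an unadjusted p under 0.05. That member was Cnot10, which with Cnot11 binds the N-terminal end of CNOT1. It was at 10.25, 10.23, 10.17, 10.26 and 10.23 in WT-KO and at 10.33, 10.33, 10.33, 10.36 and 10.31 in KO-KO. The genotypes did not overlap, which by itself makes KO-KO higher on 5 of 5 days. The share of all genes without overlap in this comparison is not given here. The difference was 0.11 (SE 0.0338, adjusted p = 0.0646 by limma), an increase of 7.59% that missed the threshold. For Cnot1 the difference was -0.02 (95% interval -0.16 to 0.12) and for Cnot2 -0.01 (-0.10 to 0.08).

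Whether the Trim71 difference depended on Lin28a was tested as an interaction. No member passed by limma, against 0.0200% of all genes (3 of 14988), and 2 members had an unadjusted p under 0.05. These were Cnot1, with an interaction of 0.24 (SE 0.101, adjusted p = 0.300 by limma), and Cnot2, with 0.20 (SE 0.068, limma adjusted p = 0.239). The falls of Cnot1 and Cnot2 in KO-WT are therefore not shown to differ from the values in Lin28a-null cells.

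**Figure D4:**
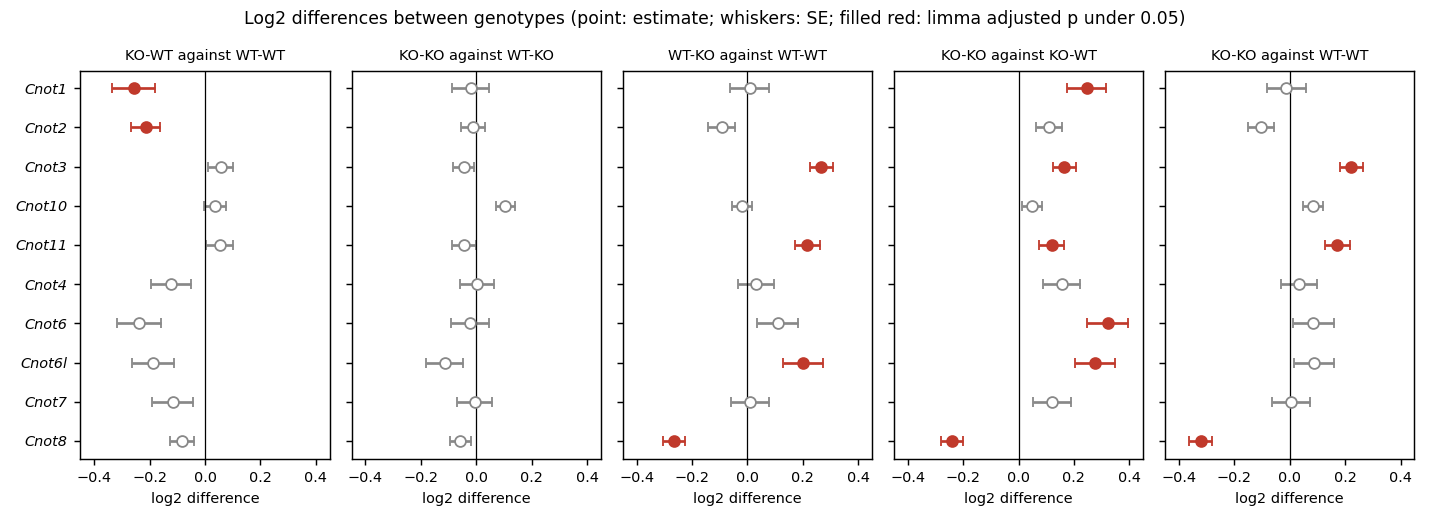
Log2 differences of the 10 subunits in 5 comparisons between genotypes (x axis, 1 panel each); points are limma estimates, whiskers SE, and filled red points have an adjusted p under 0.05. Cnot8 lies below 0 in all 3 comparisons of Lin28a-null with Lin28a-intact cells, from -0.32 to -0.24, and Cnot3 above 0 in the same 3.

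Lin28a-null and Lin28a-intact cells differed in the nuclease Cnot8 and in the non-catalytic subunits Cnot3 and Cnot11, whichever Trim71 state was compared. In Trim71-intact cells (WT-KO against WT-WT) limma called 4 of 10 members, 3 higher and 1 lower, against 42.4% of all genes. In Trim71-null cells (KO-KO against KO-WT) it called 6 of 10, 5 higher and 1 lower, against 42.8%. Between the double-null and the doubly floxed cells (KO-KO against WT-WT) it called 3 of 10, 2 higher and 1 lower, against 45.6%. The first and last of these shares lie under the background and the second above it, and the comparisons share libraries. Nothing particular to the members as a set is read from these shares, and the calls below describe single genes. Of all 14988 genes, 3049, 3120 and 3143 were called higher and 3302, 3292 and 3691 lower, in the same order. How many of all genes did not overlap in these comparisons is not given here, so a lack of overlap in them is only a description. The members' median differences were 0.02, 0.14 and 0.06, against -0.0077, -0.00082 and -0.019 for all genes tested.

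Cnot8, a CAF1-type deadenylase, fell in all 3. It was at 10.40, 10.31, 10.36 and 10.32 in WT-WT, at 10.30, 10.30, 10.22 and 10.24 in KO-WT, at 10.07, 10.02, 10.13, 10.08 and 10.12 in WT-KO, and at 9.99, 10.05, 9.99, 10.06 and 10.04 in KO-KO. Every Lin28a-null library was below every Lin28a-intact one. The difference was -0.26 (SE 0.0402, adjusted p = 7.64e-05 by limma) in WT-KO, so that the level fell by 16.8%. In KO-KO it was -0.24 against KO-WT (limma adjusted p = 0.000188) and -0.32 against WT-WT (limma adjusted p = 9.97e-06). Cnot8 was called in these 3 comparisons in all 18 fits that left out 1 library and in all 8 other settings tried. Clones E3 and C1 alone gave -0.26 for WT-KO against WT-WT, and clones 1 and 1-4 alone gave -0.26.

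Cnot3, a NOT-module subunit, was at 9.91, 9.99, 9.87 and 9.93 in WT-WT and at 9.91, 9.97, 10.05 and 9.99 in KO-WT. It was at 10.19, 10.22, 10.15, 10.18 and 10.21 in WT-KO and at 10.16, 10.19, 10.13, 10.13 and 10.11 in KO-KO, above all Lin28a-intact libraries. The rise was 0.27 (SE 0.0412, adjusted p = 8.70e-05 by limma) in WT-KO, or 20.4%. It was 0.16 in KO-KO against KO-WT (limma adjusted p = 0.00426) and 0.22 against WT-WT (limma adjusted p = 0.00044). Within clones E3 and C1 and within clones 1 and 1-4 the WT-KO rise was 0.26 and 0.28 and stayed called (limma adjusted p = 0.0414 and 0.00239). The KO-KO rise against KO-WT, 0.17 and 0.14, was called within neither pair (limma adjusted p = 0.0734 and 0.141). Against WT-WT it was called within clones 1 and 1-4 but not within E3 and C1 (limma adjusted p = 0.00830 and 0.0628).

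Cnot11 was at 8.31, 8.24, 8.32 and 8.38 in WT-WT and at 8.38, 8.43, 8.36 and 8.29 in KO-WT, and at 8.50, 8.54, 8.53, 8.55 and 8.52 in WT-KO and 8.51, 8.46, 8.49, 8.46 and 8.49 in KO-KO. All Lin28a-null libraries were above all Lin28a-intact ones. Its rise was 0.22 (SE 0.0452, adjusted p = 0.00122 by limma) in WT-KO. It was 0.12 in KO-KO against KO-WT (limma adjusted p = 0.0433) and 0.17 against WT-WT (limma adjusted p = 0.00577). The second of these 3 calls was lost in 10 of the 18 fits that left out 1 library. Within pairs of clones Cnot11 stayed called only for WT-KO in clones E3 and C1 (0.27, limma adjusted p = 0.0359), and clones 1 and 1-4 gave 0.16 (limma adjusted p = 0.0738). Its partner Cnot10 differed by -0.02 (95% interval -0.10 to 0.06) in WT-KO and by 0.05 (-0.03 to 0.13) in KO-KO against KO-WT.

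Cnot6l, the least abundant member, was at 7.59, 7.58, 7.60 and 7.58 in WT-WT and at 7.70, 7.72, 7.77, 7.97 and 7.77 in WT-KO. The genotypes did not overlap, and the rise was 0.20 (SE 0.0711, adjusted p = 0.0317 by limma). That call was lost within either pair of clones (limma adjusted p = 0.207 in E3 and C1 and 0.148 in 1 and 1-4) and in 6 of 18 fits that left out 1 library. With the GC and length trend removed the rise was 0.31 (limma adjusted p = 0.00423) and stayed called. In KO-KO it was at 7.75, 7.65, 7.59, 7.68 and 7.69, against 7.49, 7.50, 7.20 and 7.40 in KO-WT. This difference was 0.28 (SE 0.0711, adjusted p = 0.00536 by limma). It was 0.11 (limma adjusted p = 0.286) once the GC and length trend was removed, and it was called within neither pair of clones (limma adjusted p = 0.104 and 0.0536).

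Cnot6 was at 9.79, 9.58, 9.79, 9.55 and 9.69 in KO-KO and at 9.32, 9.38, 9.26 and 9.46 in KO-WT. All KO-KO libraries were higher, by 0.32 (SE 0.074, adjusted p = 0.00235 by limma), or 25.1%. The difference between WT-KO and WT-WT was 0.11 (limma adjusted p = 0.247). With the GC and length trend removed the 2 differences were 0.24 (limma adjusted p = 0.000305) and 0.22 (limma adjusted p = 0.000568), so that Cnot6 then passed in both. For KO-KO against KO-WT clones E3 and C1 alone gave 0.32 (limma adjusted p = 0.0260) and clones 1 and 1-4 gave 0.26 (limma adjusted p = 0.0544).

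Cnot1 was higher in KO-KO than in KO-WT by 0.25 (SE 0.0712, adjusted p = 0.0111 by limma). Its KO-KO libraries were at 12.03, 11.97, 11.99, 11.76 and 11.89, and replicate 4 was below the highest KO-WT library, at 11.80. Within clones E3 and C1 the difference was 0.26 and within clones 1 and 1-4 it was 0.14, and neither passed (limma adjusted p = 0.0541 and 0.214). With the GC and length trend removed it was 0.15 and stayed called (limma adjusted p = 0.00646). In the other comparisons with the Lin28a-intact cells Cnot1 differed by 0.01 (WT-KO against WT-WT, limma adjusted p = 0.941) and -0.01 (KO-KO against WT-WT, 95% interval -0.16 to 0.14). KO-WT, the genotype in which Cnot1, Cnot6 and Cnot6l had their lowest mean, is the reference of the comparison in which all 3 were called.

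Cnot4 and Cnot7 were called in no comparison of the deposited values. Cnot4 was at 7.82 to 8.14 and Cnot7 at 8.93 to 9.42 over all libraries. With the GC and length trend removed both were called in WT-KO against WT-WT, Cnot4 at 0.16 (limma adjusted p = 0.0363) and Cnot7 at 0.14 (limma adjusted p = 0.0256). Both were also called in KO-KO against WT-WT, Cnot4 at 0.18 (limma adjusted p = 0.0164) and Cnot7 at 0.15 (limma adjusted p = 0.0145). In the same setting Cnot6 (0.20, limma adjusted p = 0.00126) and Cnot10 (0.11, limma adjusted p = 0.0194) gained a call there, and Cnot2 gained one in KO-KO against KO-WT (0.16, limma adjusted p = 0.00224). The calls of Cnot3, Cnot8 and Cnot11 in WT-KO against WT-WT all held with the trend removed, at 0.28, -0.20 and 0.22.

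The balance of the CAF1 paralogues was examined as the log2 ratio of Cnot8 to Cnot7 within a library, which does not depend on scaling. The deviation of Cnot7 followed the libraries' GC trend (r = -0.780) more closely than that of Cnot8 (0.207). The part of that trend in the ratio was not tested. The ratio was 1.11 ± 0.09 (SD, n = 4) in WT-WT and 1.14 ± 0.12 (SD, n = 4) in KO-WT. In the Lin28a-null cells it was 0.83 ± 0.14 (SD, n = 5) with Trim71 and 0.78 ± 0.06 (SD, n = 5) without. The KO-KO libraries, at 0.71 to 0.87, were below all Lin28a-intact ones, which were at 1.00 to 1.30. An exact two-sided permutation test gave p = 0.0159 for KO-KO against KO-WT and against WT-WT, the smallest value that 4 against 5 libraries allow. For WT-KO against WT-WT the exact permutation p was 0.0317. Adjusted over the 10 comparisons of the 2 ratios these exact permutation p became 0.0794, 0.0794 and 0.106, so none passed. This test does not use the pairing by day. It also takes no account of the day differences having been removed before deposit, so its p-values can be too small. On shared days the ratio was lower in WT-KO than in WT-WT on 3 of 4 days. It was lower in KO-KO than in KO-WT and than in WT-WT on 4 of 4, which the lack of overlap fixes in advance. The ratio of Cnot6 to Cnot6l was 2.01 ± 0.10 (SD, n = 4), 1.96 ± 0.12 (n = 4), 1.92 ± 0.14 (n = 5) and 2.01 ± 0.12 (n = 5) in the same order, with exact permutation p of 0.302 or more.

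**Figure D5:**
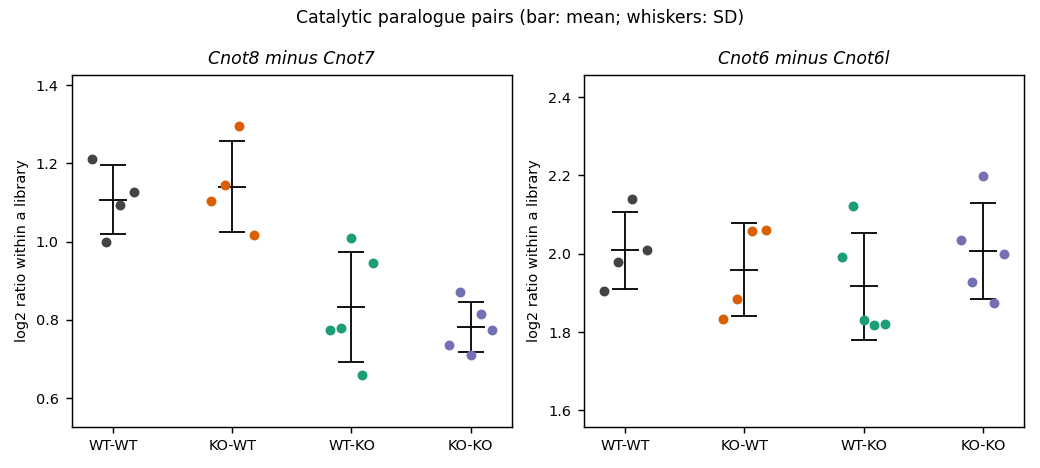
Log2 ratio of Cnot8 to Cnot7 (left) and of Cnot6 to Cnot6l (right) within each library, by genotype; points are libraries, bars means and whiskers SD. The 5 KO-KO libraries of the left panel, at 0.71 to 0.87, sit below the 8 Lin28a-intact libraries.

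Sequences were set beside these values where the reference tables held them. The promoters of Cnot3 and Cnot11 are shown because these members rose together in Lin28a-null cells. Each runs from 250 bases before to 50 bases after the RefSeq start site (GRCm38.p6, both on the plus strand), at chr7:3645019-3645318 for Cnot3 and chr1:39535451-39535750 for Cnot11. Capitals mark matches on either strand to the GC box GGGCGG, the CCAAT box CCAAT, the TATA box TATAAA or the ETS core CCGGAAG.
Cnot3: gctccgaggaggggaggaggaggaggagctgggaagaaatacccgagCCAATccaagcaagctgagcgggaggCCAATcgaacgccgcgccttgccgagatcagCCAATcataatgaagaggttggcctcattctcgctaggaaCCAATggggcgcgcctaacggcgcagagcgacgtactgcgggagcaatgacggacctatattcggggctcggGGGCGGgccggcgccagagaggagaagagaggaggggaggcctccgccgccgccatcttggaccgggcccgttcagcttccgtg
Cnot11: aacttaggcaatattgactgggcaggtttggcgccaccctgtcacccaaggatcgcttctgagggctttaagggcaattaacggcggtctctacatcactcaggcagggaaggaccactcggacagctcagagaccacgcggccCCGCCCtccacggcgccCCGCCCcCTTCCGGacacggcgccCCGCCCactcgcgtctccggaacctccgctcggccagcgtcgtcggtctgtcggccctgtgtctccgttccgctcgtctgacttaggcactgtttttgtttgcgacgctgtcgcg
Cnot3 had 4 CCAAT boxes and 1 GC box, and Cnot11 had 3 GC boxes and 1 ETS core, with no motif shared by name other than the GC box. Of 32851 promoters of this length, 35.7% held a GC box, 37.4% a CCAAT box, 13.6% a TATA box and 8.86% an ETS core. Both were rich in CpG dinucleotides, with 28 in Cnot3 and 31 in Cnot11, against a median of 7. Cnot8 has 4 listed start sites, of which the table shows none as the one in use, so none is printed. Promoters were matched for 8 of the 10 members, all but Cnot1 and Cnot7.

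The let-7 family is shown because LIN28A acts on its maturation and the Cnot8, Cnot3 and Cnot11 differences lay between Lin28a states; no microRNA was measured in these libraries. The 8 RefSeq mature let-7 5p sequences share 1 seed, bases 2 to 8, given here in capitals for 3 of them.
mmu-let-7a-5p: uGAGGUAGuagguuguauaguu
mmu-let-7d-5p: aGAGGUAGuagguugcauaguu
mmu-let-7g-5p: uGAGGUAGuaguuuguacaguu
The complement of the seed, CTACCTC, occurred after the stop codon of the longest protein-coding transcript (GENCODE M21) in 0 of 10 members. It occurred in 10.6% of 12504 tested genes with such a stretch, whose median length was 1129 nt. The members' stretches ran from 283 nt in Cnot3 to 6847 nt in Cnot6l. No match says only that these letters are not in these stretches.

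The library kit does not mark strand, so reads of genes on opposite strands cannot be told apart where exons overlap. Exons of Leng1 cover 6.07% of the annotated exon length of Cnot3, 5330438D12Rik covers 5.69% of Cnot2, Zdhhc2 4.24% of Cnot7 and 4930513N10Rik 0.769% of Cnot1. How reads that fit both paralogues of a pair (Cnot6 and Cnot6l, Cnot7 and Cnot8) were counted is not given in the sources used here.

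Other genes of mRNA decay were described as 4 lists. The name of a list, such as other deadenylases, is a heading, and no enzyme activity was measured. Cnot9, the remaining core subunit, which binds TNRC6 proteins and is named here after its values were seen, rose in Lin28a-null cells by 0.15, 0.19 and 0.14 in the order used above, with limma adjusted p of 0.00436, 0.000807 and 0.00713. It did not pass after Trim71 loss, at -0.05 in KO-WT and -0.01 in KO-KO. Cnot9 was thus called in the same 3 comparisons as Cnot3, Cnot8 and Cnot11.

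After Trim71 loss limma called 5 of the 54 tested genes of the 4 lists in KO-WT (9.26%, against 11.2% of all genes) and 3 in KO-KO against WT-KO (5.56%, against 8.38%), shares near the background. By direction, 711 of all 14988 genes were called higher and 963 lower in KO-WT, and 639 and 617 in KO-KO against WT-KO. In KO-WT, 2 of 20 adaptors and recruiters of the complex rose, none fell, and these were Btg2 (0.50, limma adjusted p = 0.0042), an antiproliferative protein that binds CNOT7 and CNOT8, and Zfp36l1 (0.34, limma adjusted p = 0.0224), which recruits the complex to AU-rich elements. Of 19 decapping and decay genes 1 rose, Lsm4 (0.23), and 1 fell, the 5′-to-3′ exonuclease Xrn1 (-0.37, limma adjusted p = 0.0480). Of 6 poly(A)-binding proteins and partners 1 fell, Paip2b (-0.15). Limma called 0 of 9 other deadenylases, with 3 at an unadjusted p under 0.05. In Lin28a-null cells (KO-KO against WT-KO) Btg2 rose by 0.57 (limma adjusted p = 0.000351), and Patl2 (-0.46) and Lsm14b (-0.20) of the decapping list fell. There limma called 0 of 9 other deadenylases and 0 of 6 poly(A) genes, with 0 and 1 at an unadjusted p under 0.05. No gene of the 4 lists passed the interaction by limma, with 5 of them at an unadjusted p under 0.05.

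Between Lin28a states limma called 29, 28 and 24 of the 54 list genes in WT-KO against WT-WT, KO-KO against KO-WT and KO-KO against WT-WT. These shares of 53.7%, 51.9% and 44.4% stand beside 42.4%, 42.8% and 45.6% of all genes, and nothing particular to the lists is read from them. By direction, 3049, 3120 and 3143 of all 14988 genes were called higher and 3302, 3292 and 3691 lower. Of the 9 genes listed as other deadenylases 5 rose in WT-KO, 4 in KO-KO against KO-WT and 4 in KO-KO against WT-WT, and none fell. Their medians were 0.21, 0.06 and 0.09. Called in all 3 were Angel2 (0.24, 0.35 and 0.31), Angel1 (0.30, 0.18 and 0.37), Pnldc1 (0.24, 0.23 and 0.25) and Pan2 (0.21, 0.30 and 0.18), the catalytic subunit of the PAN2-PAN3 deadenylase. Of the 20 adaptors 8, 6 and 8 rose and 3, 3 and 2 fell in the same order. Tnks1bp1, a binding partner of the complex, rose by 0.77, 0.76 and 0.93. Tnrc6c (0.28, 0.31 and 0.30) and Tnrc6b (0.23, 0.44 and 0.40), microRNA silencing proteins that bind CNOT1, also rose in all 3. Their paralogue Tnrc6a was called in none (-0.19, 0.10 and -0.03). Zfp36l1 rose in WT-KO (0.24) and in KO-KO against WT-WT (0.45). The mRNA-binding recruiters Samd4 (-0.90, -0.72 and -0.66) and Zfp36 (-0.77, -0.66 and -0.57) fell, as did Btg2 in the first 2 comparisons (-0.69 and -0.62).

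Of the 19 decapping and decay genes 7, 9 and 4 rose and 3, 4 and 3 fell. The decapping cofactors Dcp1b (0.65, 0.76 and 0.62), Edc4 (0.27, 0.25 and 0.33) and Dcp1a (0.16, 0.24 and 0.24) rose in all 3. Patl2 (0.64 and 0.53) and Lsm14b (0.32 and 0.25) rose in the first 2, and Xrn1 in KO-KO against KO-WT (0.39). Lsm1 (-0.21, -0.29 and -0.29) and Lsm5 (-0.24, -0.18 and -0.25), subunits of the LSM ring, fell in all 3. Lsm4 rose in the first (0.19) and fell in the second (-0.17), and the helicase Ddx6, which binds CNOT1, fell in the first and the last (-0.22 and -0.24). Of the 6 poly(A) genes Pabpc4 rose (0.36, 0.27 and 0.26) and Paip2 fell (-0.29, -0.24 and -0.39) in all 3, and Paip2b fell in the first and the last (-0.18 and -0.24).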

How the data were processed

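Messenger RNA of SSEA-1-sorted mouse embryonic stem cells was measured in 19 paired-end libraries made with an unstranded TruSeq kit, per the labels' protocols. The submitters' processing notes name CASAVA 1.8, STAR and DESeq2 without a role; the aligner's settings, genome build and annotation are not given in the sources used here. The authors deposited log2 normalised values for 21685 symbols (-0.712 to 16.3, from the values). In the deposited values a day term fitted beside genotype was at most 1.7e-08, so day differences had been removed. KO-WT replicate 5, the sole library of its day, departed from the average of the remaining 4 libraries of its genotype by at most 1.5e-08 and was omitted, which leaves 18.

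Genes at 10 linear units or more in at least 4 libraries were tested (14988, 69.1%). limma 3.58.1 in R 4.3.3 fitted genotype means with day as a term (the replicate block), since the labels pair libraries by day, with empirical Bayes trend and 10 residual degrees of freedom. p-values were adjusted by Benjamini-Hochberg over all genes tested, and calls made under 0.05. Ratios were tested by exact permutation (SciPy 1.17.1), without a day term. The script was tested on simulated data. GC content and length came from the longest GENCODE M21 transcript of any type (98.2% of tested genes). For Cnot2, Cnot3, Cnot4, Cnot7 and Cnot10 it was longer than the protein-coding transcript used for levels per kilobase. Promoters and microRNAs came from RefSeq. Alternatives left out the day term or the filter, rescaled libraries, removed the GC and length trend, used either pair of clones or the compared genotypes alone, or left out each library. All members are named; of each other list, up to 3 genes called higher and 3 called lower by size in each comparison, and the 5 genes most like the members' mean. Members and lists were chosen with earlier results of these data known. The depth is unknown, so no counting intervals are given.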

Additional observations from a re-analysis of the deposited data

Results flagged for a closer look

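Of 40 groups of a member and a genotype, 3 held a library far from the others of its genotype, and chance alone flags about 1 in 20 groups. Cnot2 was lowest in KO-KO replicate 2, at 9.42, with the next library at 9.48. Cnot6l was highest in WT-KO replicate 4, at 7.97, with the next library at 7.77. Cnot10 was highest in WT-WT replicate 2, at 10.29, with the next library at 10.24. WT-KO replicate 4 was also the library with the lowest rank correlation of all genes' deviations with GC content, -0.452, and its part in the Cnot6l value was not tested.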

How the results depend on the processing

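With no day term (no replicate block, so that libraries were not paired by day), the members called were 4 in KO-WT against WT-WT (2 with the term), 1 in KO-KO against WT-KO (0), 5 in KO-KO against WT-WT (3) and 1 in the interaction (0). Of all genes, that setting called 28.1% (11.2% with the term), 17.5% (8.38%), 55.3% (45.6%) and 4.49% (0.0200%) in the same order. For KO-WT against WT-WT, 1 member was called without the filter and 1 with the GC and length trend removed, and 0 in clones E3 and C1 alone, in clones 1 and 1-4 alone (which hold 1 KO-WT library, assumed to vary like the others) and in the compared genotypes alone. These settings called 6.27%, 7.71%, 0.0667%, 2.3% and 0.2% of all genes. Median ratio scaling called 1 member, Cnot10, in KO-KO against WT-KO (8.4% of all genes). With the GC and length trend removed, 7 were called in WT-KO against WT-WT (4) and 7 in KO-KO against WT-WT (3), with 45.7% and 46.7% of all genes. Clones 1 and 1-4 alone gave 2 in WT-KO against WT-WT and 1 in KO-KO against KO-WT (6), with 29.2% and 15.3% of all genes. Clones E3 and C1 alone gave 2 in KO-KO against KO-WT and 1 in KO-KO against WT-WT, with 24.0% and 17.8%. Leaving out each library gave 0 to 2, 0 to 0, 3 to 4, 4 to 7, 3 to 4 and 0 to 0 calls, in the order KO-WT against WT-WT, KO-KO against WT-KO, WT-KO against WT-WT, KO-KO against KO-WT, KO-KO against WT-WT and interaction. Of the alternatives for single members, 57 lost a call, 28 gained one and 1465 changed none, with no called value reversed; the cause was not tested. Rescaling moved the median of all genes by at most 0.02.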
